A study of Mus musculus with 12 samples.

Results

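The genes of the circadian clock were examined in the cortex and cerebellum of SCA1 KI mice, a mouse model of spinocerebellar ataxia type 1, and of WT littermates. The 10 genes were taken by symbol, not by their values: the activators Arntl and Clock, the repressors Per1, Per2, Per3, Cry1 and Cry2, the nuclear receptor genes Nr1d1 and Nr1d2, and the output gene Dbp. All 10 had a row among the 15759 rows of the deposited table, and all 10 were among the 15369 genes tested. Poly-adenylated RNA had been sequenced in 12 libraries, 3 for each combination of region (whole cortex or whole cerebellum) and genotype. SCA1 KI mice carry 1 expanded allele at the endogenous locus (Atxn1 154Q/2Q), so the mutant protein is made wherever Atxn1 itself is active, and WT mice carry no expanded allele. All animals were C57BL/6J mice of 12 weeks, kept with 12 h of light and 12 h of darkness. The labels give males, whereas the methods name both sexes. The hour at which the tissue was taken is not given in the sources used here. The cerebellar libraries came from an earlier dataset of the same laboratory, so brain region and sequencing run cannot be told apart. Libraries are named by the letter or number in the header (cortex WT B, C and D, cortex SCA1 KI A, E and F, cerebellum WT 2, 4 and 6, cerebellum SCA1 KI 1, 3 and 5). Nothing states that each library came from another mouse, so p-values measure only the spread between these libraries.

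The clock is a feedback loop of transcription. CLOCK pairs with BMAL1, the product of Arntl, and the pair binds E-boxes to switch on the Per and Cry genes, Nr1d1, Nr1d2 and Dbp. PER and CRY proteins then hold the pair back, and the receptors REV-ERBα and REV-ERBβ, made from Nr1d1 and Nr1d2, repress Arntl through the element that the ROR receptors use to activate it. DBP acts on D-boxes, another set of elements, together with its relatives TEF and HLF. As background, Arntl peaks at an hour of the day when Nr1d1 and Dbp are low, so the hour of collection moves them in opposite directions. Per1 and Per2 also respond to neuronal activity and to glucocorticoids.

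The libraries had 29520855 to 51311309 reads on genes, and each clock gene had between 596 and 12071 reads in each library. Values are normalized counts, that is reads scaled by the size factor of each library. A gene is said to have fallen, risen or passed the test where limma gave an adjusted p under 0.05 together with a log2 fold change (LFC) over 0.25 in size. In cortex, libraries WT D and SCA1 KI A stood apart from the other 4 in clock genes: within its genotype, each had the highest Dbp, Nr1d1 and Nr1d2 and the lowest Arntl and Clock. Clock genes were not the only ones in which A differed. The chi-square for each gene, which sets differences against counting error, was 33.7 for A with E, 36.9 for A with F and 10.6 for E with F. In WT it was 23.3 for D with B, 21.8 for D with C and 18.6 for B with C. The same library A had the steepest dependence on transcript length among the 12, with a slope of -0.0980 log2 units per doubling of length, where the other 11 lay between -0.0257 and 0.0596 (D at -0.0217). With dependence on length and GC content taken out, Clock was no longer lowest in A (values below). Where a call on a named gene changed without D and A, it is given with and without them below. The clock genes varied more than other genes within the cortical groups, where their median SD on the log2 scale was 0.219 in WT and 0.260 in SCA1 KI, against 0.129 and 0.139 over all genes tested. In cerebellum their median SD was 0.131 in WT and 0.0550 in SCA1 KI, against 0.108 and 0.0660.

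RefSeq promoters (GRCm38.p6, 250 bases before to 50 after the start site) were found for 9 of the 10 genes, the exception being Per2. The promoters below are printed because they hold the elements through which the loop is known to run. Capitals mark the E-box CACGTG, the variant E-box CACGTT, the D-box TTATGTAA and the ROR response element, each searched on both strands with no overlaps among them in these windows. Ciart, a repressor of CLOCK and BMAL1, is added since its values followed Dbp most closely.
Per1 (chr11:69098699-69098998, plus strand): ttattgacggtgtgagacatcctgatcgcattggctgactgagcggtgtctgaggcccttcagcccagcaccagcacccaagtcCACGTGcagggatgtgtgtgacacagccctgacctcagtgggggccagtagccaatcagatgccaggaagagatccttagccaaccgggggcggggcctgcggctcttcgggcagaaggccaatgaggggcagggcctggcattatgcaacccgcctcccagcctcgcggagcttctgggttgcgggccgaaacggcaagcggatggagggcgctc
Per3 (chr4:151044616-151044915, minus strand): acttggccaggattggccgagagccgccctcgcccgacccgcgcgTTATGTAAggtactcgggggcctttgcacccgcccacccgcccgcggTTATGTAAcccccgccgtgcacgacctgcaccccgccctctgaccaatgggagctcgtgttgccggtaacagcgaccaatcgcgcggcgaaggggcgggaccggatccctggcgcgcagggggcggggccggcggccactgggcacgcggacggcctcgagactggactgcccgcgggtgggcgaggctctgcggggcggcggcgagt
Cry1 (chr10:85185005-85185304, minus strand): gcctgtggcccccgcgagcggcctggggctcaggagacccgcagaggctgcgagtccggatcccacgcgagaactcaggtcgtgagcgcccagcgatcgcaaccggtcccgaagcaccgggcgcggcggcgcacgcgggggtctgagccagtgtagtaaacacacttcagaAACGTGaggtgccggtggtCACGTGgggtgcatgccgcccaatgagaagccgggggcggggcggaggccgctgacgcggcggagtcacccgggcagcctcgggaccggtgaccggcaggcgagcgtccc
Arntl (chr7:113207261-113207560, plus strand): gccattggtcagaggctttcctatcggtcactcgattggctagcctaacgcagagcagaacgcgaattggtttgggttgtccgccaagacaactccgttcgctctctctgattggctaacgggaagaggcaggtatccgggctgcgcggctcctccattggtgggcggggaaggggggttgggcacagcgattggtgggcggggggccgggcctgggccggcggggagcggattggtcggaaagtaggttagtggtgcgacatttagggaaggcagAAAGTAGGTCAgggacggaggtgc
Ciart (chr3:95882179-95882478, minus strand): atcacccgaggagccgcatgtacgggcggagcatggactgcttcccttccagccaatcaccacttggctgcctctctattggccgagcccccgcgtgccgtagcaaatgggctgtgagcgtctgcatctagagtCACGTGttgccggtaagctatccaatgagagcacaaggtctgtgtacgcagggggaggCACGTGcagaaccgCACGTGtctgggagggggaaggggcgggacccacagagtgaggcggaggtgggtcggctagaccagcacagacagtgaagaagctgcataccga
The first of the 2 Per1 windows held 1 E-box and the other none of these letters, that of Per3 held 2 D-boxes, and that of Cry1 held 1 E-box and 1 variant E-box. The second of the 2 Arntl windows held 1 ROR response element, downstream of the start site, and the Ciart window held 3 E-boxes. Among all 32851 promoter windows of this length, 7.15% held the E-box, 4.68% the variant, 0.938% the D-box and 0.384% the ROR response element. Cry2 and Nr1d1 each had 1 variant E-box, and the windows of Clock, Nr1d2 and Dbp held none of these letters, which says nothing of elements outside them.

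The first comparison asked whether clock genes differed between SCA1 KI and WT cortex. In SCA1 KI cortex Per1, Per3, Cry2 and Nr1d1 fell, by 1.34-fold to 1.90-fold, and no clock gene rose in limma, edgeR or DESeq2. That is 4 of 10 genes, where 10.8% of all tested genes fell and 4.82% rose. The LFC ran from -0.92 for Per3 to 0.33 for Cry1 with a median of -0.49, against -0.0028 over all genes tested, and 9 of the 10 values were negative. The 4 genes that fell were also the 4 of 10 whose SCA1 KI libraries all lay below the WT libraries (18.0% of all genes), and Cry1 was the 1 gene of 10 whose SCA1 KI libraries all lay above (13.0% of all genes).

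**Figure D1:**
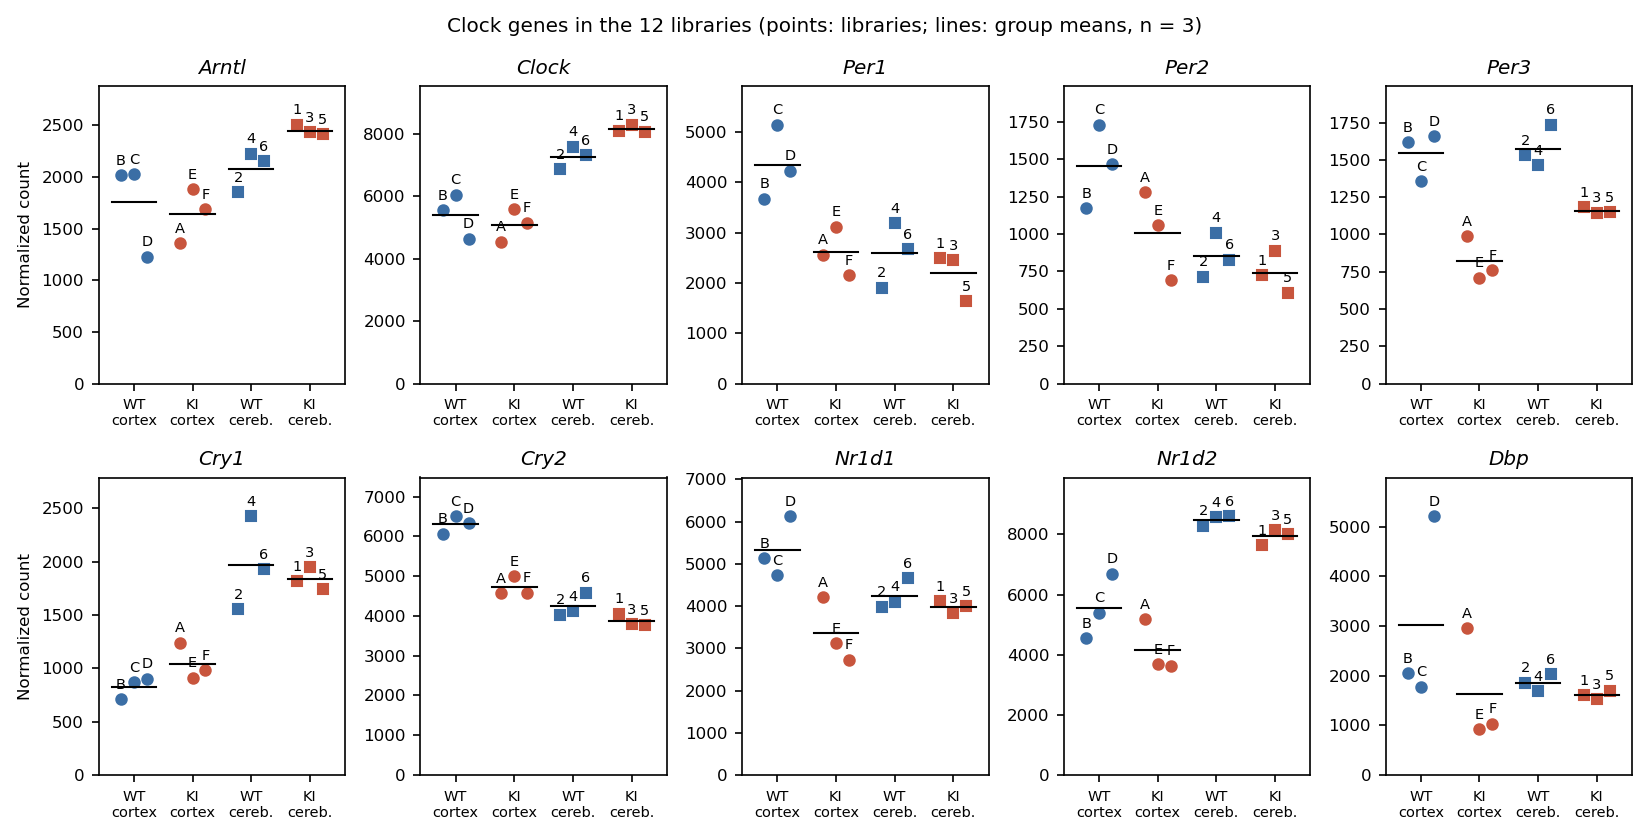
Normalized counts (y axis, from 0) of the 10 clock genes in each library, by region and genotype (x axis; KI, SCA1 KI); points are libraries marked by letter or number and lines are group means (n = 3). In cortex the SCA1 KI points of Per1, Per3, Cry2 and Nr1d1 all lie below the WT points, and the Dbp points of D and A lie above those of the other cortical libraries.

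The activators did not differ detectably between the cortical groups. Arntl (chr7:113207465-113314126, plus strand of GRCm38), which encodes BMAL1, had 2015, 2025 and 1226 normalized counts in WT B, C and D and 1359, 1879 and 1690 in SCA1 KI A, E and F. The low values were those of D and A, and the groups overlapped. The LFC was -0.07 ± 0.17 (SE, adjusted p = 0.818). Clock (chr5:76209868-76304792, minus strand) had 5546, 6048 and 4643 in WT and 4548, 5578 and 5149 in SCA1 KI, again lowest in D and A. Its LFC was -0.08 ± 0.09 (adjusted p = 0.589).

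Among the Per genes, whose products form the inhibitory complex with CRY, Per3 showed the clearest separation. Per3 (chr4:151003652-151044665, minus strand) had 1620, 1359 and 1659 normalized counts in WT B, C and D and 988, 710 and 760 in SCA1 KI A, E and F. Every SCA1 KI library was below every WT library, and the LFC was -0.92 ± 0.12, a 1.90-fold fall (adjusted p = 0.000197). Without D and A the LFC was -1.01. Per1 (chr11:69095217-69109960, plus strand), the member most quickly induced by stimuli, had 3672, 5144 and 4232 in WT and 2562, 3116 and 2151 in SCA1 KI. The groups did not overlap, but both were spread, with an LFC of -0.74 ± 0.21 (1.67-fold, adjusted p = 0.0276). This call rested on single libraries: adjusted p was 0.115 without WT C, 0.0566 without WT D, 0.0642 without SCA1 KI A, 0.0951 without SCA1 KI F and 0.0729 once dependence on length and GC was taken out, while the LFC stayed between -0.75 and -0.60 in these fits. Per2 (chr1:91415982-91459324, minus strand) had 1172, 1731 and 1468 in WT and 1281, 1058 and 689 in SCA1 KI. The groups overlapped, since A lay above B, and the LFC of -0.56 ± 0.22 did not pass (adjusted p = 0.104). It was -0.75 without A (0.0405) and -0.31 without F (0.331).

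The Cry genes, which encode the main repressors of CLOCK and BMAL1, went apart. Cry2 (chr2:92403646-92434043, minus strand) had 6070, 6504 and 6337 normalized counts in WT and 4565, 5002 and 4579 in SCA1 KI. It had the tightest groups of the 10 genes, within which D and A did not stand apart, and it fell by 1.34-fold (LFC -0.42 ± 0.06, adjusted p = 0.000702). Cry1 (chr10:85131700-85185064, minus strand) had 708, 867 and 902 in WT and 1239, 913 and 979 in SCA1 KI. The SCA1 KI libraries were all higher, yet E lay close to D, and the LFC of 0.33 ± 0.15 did not pass (adjusted p = 0.161; LFC 0.20 without A).

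Of the REV-ERB genes, Nr1d1 (chr11:98767932-98775333, minus strand) had 5136, 4731 and 6126 normalized counts in WT and 4210, 3125 and 2729 in SCA1 KI. D and A were the highest of their groups, the groups did not overlap, and the fall was 1.61-fold (LFC -0.68 ± 0.14, adjusted p = 0.00387; LFC -0.76 without D and A). Nr1d2 (chr14:18204054-18239127, minus strand) had 4551, 5394 and 6693 in WT and 5174, 3675 and 3634 in SCA1 KI. Library A lay above B, and the LFC of -0.42 ± 0.14 did not pass (adjusted p = 0.0563). It passed without B (0.0189) or without A (0.00573), and in DESeq2 (0.0245), whereas without D the LFC was -0.27 (0.181).

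Dbp (chr7:45705088-45710203, plus strand), a clock output that encodes a D-box factor, had the widest spread of the 10 genes. It had 2050, 1781 and 5211 normalized counts in WT B, C and D and 2954, 921 and 1034 in SCA1 KI A, E and F, so that the highest library exceeded the lowest by 2.92-fold within WT and by 3.21-fold within SCA1 KI. The mean was 3014 ± 1907 (SD, n = 3) in WT and 1636 ± 1142 in SCA1 KI. The LFC was close to that of Per3, at -0.92, but with an SE of 0.41 (adjusted p = 0.152). Its size turned on single libraries in both directions: the LFC was -1.45 without A (adjusted p = 0.0119), -0.44 without D (0.448) and -0.61 without E (0.385). Without both D and A it was -0.97 (0.000264). Since D and A were named from these same values, the narrower spread without them is no independent test.

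**Figure D2:**
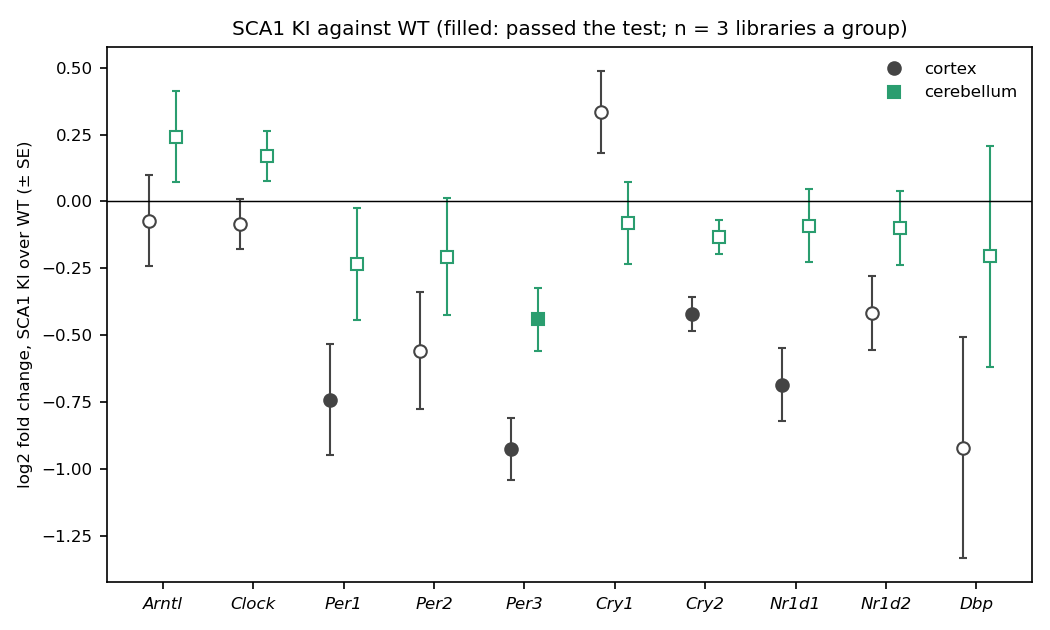
LFC of SCA1 KI over WT (y axis, ± SE) for each clock gene (x axis) in cortex (circles) and cerebellum (squares), n = 3 libraries a group; filled symbols passed the test. Per1, Per3, Cry2 and Nr1d1 are filled in cortex and Per3 alone in cerebellum, and the bars of Dbp are the longest in both regions, since the fit gives each gene 1 spread over all groups.

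With D and A left out, a setting added once their values had been seen, 5 clock genes fell in SCA1 KI cortex: Per3, Cry2, Nr1d1, Nr1d2 and Dbp. Of the 15369 tested genes, 1388 fell there. Per1 did not pass in that fit (LFC -0.75, adjusted p = 0.108). With dependence on length and GC taken out and all libraries kept, Per3, Cry2 and Nr1d1 fell, among 1413 of all tested genes. Dbp in D and A was then still 4402 and 2757, against 1744 and 1614 in B and C and 874 and 935 in E and F. Clock in A was then 5457, between F (5390) and E (5693), so A was no longer lowest in SCA1 KI. Clock in D was still the lowest in WT, at 5037 against 5549 in B and 6046 in C.

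The libraries that differed in Dbp also differed in the genes that run with or against it. Over the deviations of the 12 libraries from their group means, Dbp correlated with Nr1d2 at r = 0.903 (Spearman's rho 0.755), with Nr1d1 at r = 0.893 (0.811) and with Per3 at r = 0.830 (0.839). It ran against Clock at r = -0.917 (-0.888) and Arntl at r = -0.898 (-0.811). Without the 2 libraries farthest from the median of Dbp, which were A and D, r was 0.630 for Nr1d2, 0.706 for Nr1d1, 0.713 for Per3, -0.790 for Clock and -0.752 for Arntl. For Cry1 r was 0.472 (0.371), and 0.0913 without A and D, and Per1, Per2 and Cry2 had r of -0.147, 0.286 and -0.168. These values describe 12 libraries that share group means and size factors, and they carry no p. Dependence on length and GC was left in for these correlations. Arntl and Dbp deviated with opposite sign in 9 of the 12 libraries, and Arntl and Clock in 2.

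**Figure D3:**
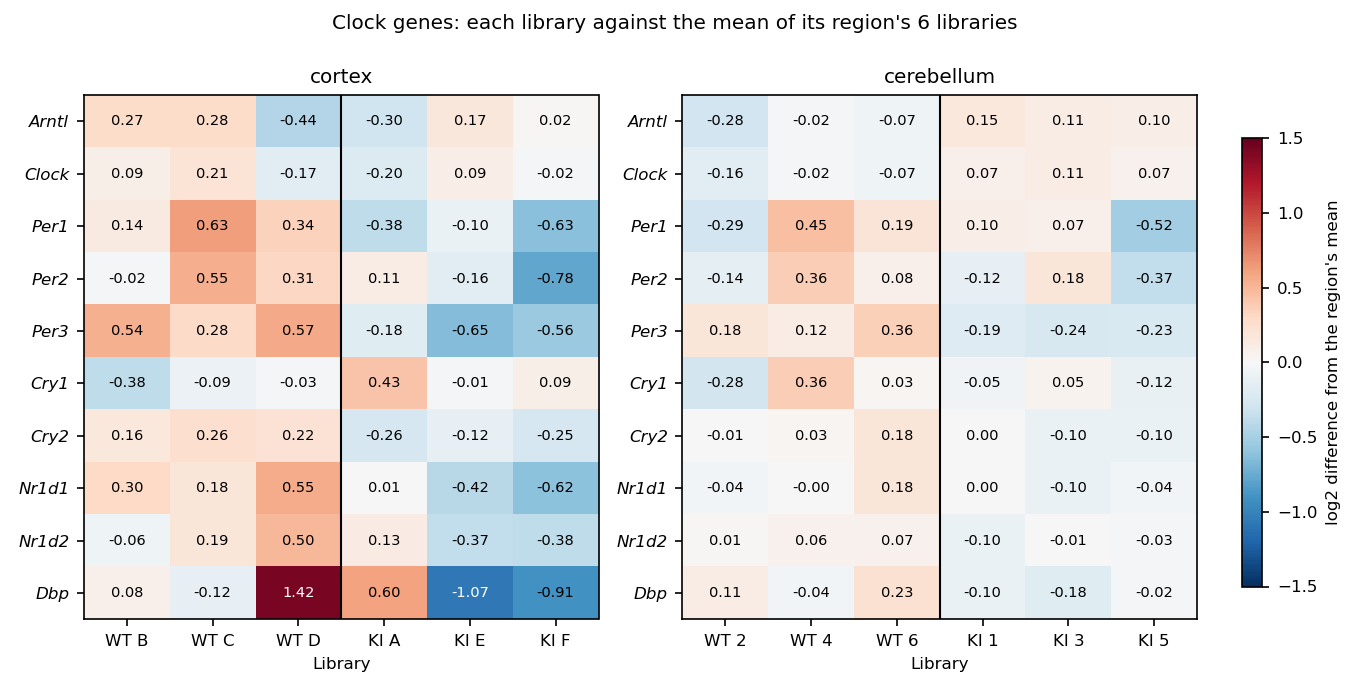
Log2 difference of each library (columns) from the mean of the 6 libraries of its region, for each clock gene (rows), in cortex (left) and cerebellum (right); KI stands for SCA1 KI and red for higher values. In cortex, Dbp of WT D (1.42) and SCA1 KI A (0.60) is above the mean while Arntl of the same libraries (-0.44 and -0.30) is below it.

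Other features moved with genotype in cortex too. Of 13 lists of cell type and region markers, the sums of 6 lay below WT in every SCA1 KI library and that of 1 lay above. Among single genes, 18.0% of all those tested lay below WT in this way and 13.0% above. The summed level of 6 astrocyte markers lay at 80035 to 92758 normalized counts in WT and at 59374 to 68243 in SCA1 KI, and that of 6 markers of cortical excitatory neurons at 83478 to 85295 and 57024 to 67339. The sum of 6 midbrain markers was 168 to 285 in WT, with 1 of the 6 at 0 in every library, and 788 to 1522 in SCA1 KI, the list above WT. The other lists below WT were those of Purkinje cells, granule cells, hippocampus and blood (1 of its 5 genes had a row). These are names of lists, and the sums do not show that such cells were present in cortex. In bulk tissue fewer cells of a type and less RNA per cell cannot be told apart. The part of these markers in the clock gene values was not tested.

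In cerebellum the question was the same, and fewer clock genes differed. Per3 fell in SCA1 KI cerebellum, from 1530, 1463 and 1736 normalized counts in WT 2, 4 and 6 to 1183, 1146 and 1149 in SCA1 KI 1, 3 and 5. Each SCA1 KI library was below each WT library, and the LFC was -0.44 ± 0.12 (1.36-fold, adjusted p = 0.0473). It was 1 of 10 genes, where 4.44% of all tested genes fell and 0.917% rose, and no clock gene rose in the fit of all libraries. The call lay at the threshold. Leaving out a cortical library, which changes only the shared spread, gave adjusted p = 0.0585 (WT B), 0.0526 (WT D) and 0.0523 (SCA1 KI F). Leaving out a cerebellar library gave 0.102 (WT 2), 0.171 (WT 6), 0.126 (SCA1 KI 1), 0.144 (SCA1 KI 3) and 0.135 (SCA1 KI 5), with the LFC between -0.46 and -0.37. With dependence on length and GC taken out adjusted p was 0.139, and with each region centred on its median it was 0.0589. Per3 did pass in edgeR, in DESeq2 and in the fit of cerebellum alone. The lowest adjusted p with 1 library left out was 0.00983.

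The other clock genes of the cerebellum had LFCs between -0.23 (Per1) and 0.24 (Arntl), none of which passed. The median over the 10 genes was -0.12, against -0.0049 over all genes tested. Nr1d2 had 8283, 8575 and 8601 normalized counts in WT and 7641, 8136 and 8013 in SCA1 KI, so that with Per3 it made 2 of 10 genes whose SCA1 KI libraries all lay below (17.5% of all genes). Its LFC was -0.10 ± 0.14 (adjusted p = 0.801). Arntl had 1852, 2227 and 2151 in WT and 2505, 2431 and 2413 in SCA1 KI, and Clock had 6861, 7590 and 7323 in WT and 8093, 8288 and 8063 in SCA1 KI. These were the 2 of 10 genes whose SCA1 KI libraries all lay above (14.3% of all genes), with LFCs of 0.24 ± 0.17 (adjusted p = 0.529) and 0.17 ± 0.09 (adjusted p = 0.397). The shared spread of the fit takes in the wide cortical groups, and the share near the background says nothing particular of these genes.

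Dbp in cerebellum had 1863, 1686 and 2031 normalized counts in WT and 1610, 1522 and 1700 in SCA1 KI, a range far narrower than in cortex. The LFC was -0.21 ± 0.41 (adjusted p = 0.870). Per1, Per2 and Cry1 each had groups that overlapped, as did Cry2 and Nr1d1: Per1 ran from 1907 to 3193 in WT and from 1633 to 2496 in SCA1 KI, Per2 from 714 to 1010 and from 606 to 889, and Cry1 from 1556 to 2423 and from 1739 to 1949. Cry2 ran from 4027 to 4586 in WT and from 3769 to 4050 in SCA1 KI, and Nr1d1 from 3987 to 4664 and from 3834 to 4120. Marker sums moved with genotype here too, with 6 of the 13 lists below WT in every SCA1 KI library and 1 above. Among single genes the shares were 17.5% below and 14.3% above. Astrocyte markers summed to 160960 to 165310 in WT and 128610 to 130900 in SCA1 KI, and oligodendrocyte markers to 178050 to 266830 and 152410 to 152490. Thalamic markers had sums of 7684 to 12592 and 4161 to 4533, and midbrain markers, higher in SCA1 KI in cortex, were lower here (632 to 1111 and 188 to 246). Markers of striatum and microglia were the other lists below WT, and those of cortical excitatory neurons were the list above. Choroid plexus markers spread widely within groups, from 19231 to 71362 in WT and from 1118 to 74540 in SCA1 KI. Library WT 2 had a granule cell sum of 112590, against 158090 and 151530 in WT 4 and 6. It was the lowest cerebellar library in Arntl, Clock and Cry1 and in no other clock gene. Here too a list name does not show that such cells were present. The part of these markers in the values was not tested.

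Whether the genotype difference itself differed between regions was tested with the interaction of region and genotype. None of the 10 clock genes passed in limma or edgeR, where 8.15% of all tested genes did in limma, and 3 of the 10 had an unadjusted p under 0.05, as did 21.4% of all tested genes. The interaction was -0.29 ± 0.09 for Cry2 (adjusted p = 0.0731), -0.59 ± 0.19 for Nr1d1 (0.0804) and -0.48 ± 0.17 for Per3 (0.0985). For Dbp it was -0.71 ± 0.58 (0.538). DESeq2 called 2, Cry2 (0.0339) and Nr1d1 (0.0400). Without SCA1 KI A, 2 passed, Nr1d1 (0.00671) and Per3 (0.0117), and Cry2 passed without SCA1 KI E (0.0476) or without cerebellum WT 6 (0.0398). Without D and A together 4 passed, Per3, Arntl, Nr1d1 and Dbp. Over all 15369 tested genes DESeq2 called 1754. The limma fits called 1254 without A, 1267 without E, 1008 without cerebellum WT 6 and 1234 without D and A. Since D and A were named from clock gene values, the fits without them are no independent test. A fall in cortex was therefore not shown to exceed that in cerebellum for any of the 10 genes in the limma fit of all libraries.

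Levels were compared between genes per kb of exon, since longer transcripts collect more reads. In WT cortex the order of the mean levels per kb was Nr1d1 (1733 ± 233, SD, n = 3), Nr1d2 (1025 ± 200), Dbp (1007 ± 637), Cry2 (997 ± 34.6), Per1 (772 ± 132), Clock (394 ± 51.9), Per2 (249 ± 47.8), Cry1 (247 ± 30.9), Arntl (233 ± 60.9) and Per3 (161 ± 17.0). Nr1d2, Dbp and Cry2 overlapped as neighbours, as did Per2, Cry1, Arntl and Per3, whereas Nr1d1 was apart from Nr1d2 below it, and Per1 and Clock were each apart from both neighbours. In SCA1 KI cortex Nr1d1 was again first (1090 ± 249) and Per3 last (85.3 ± 15.4), and only Cry1 and Arntl, and Per2 and Per3, were neighbours that did not overlap. In WT cerebellum Nr1d2 came first (1569 ± 32.7), followed by Nr1d1 (1381 ± 118), and the other 8 genes lay between 672 (Cry2) and 145 (Per2), where Per1 and Arntl, and Arntl and Per3, were neighbours that did not overlap. In SCA1 KI cerebellum the first places were held by Nr1d2 (1466 ± 47.7) and Nr1d1 (1295 ± 46.6), and the last by Per2 (126 ± 24.3) and Per3 (121 ± 2.13), which overlapped. Part of some exons is shared with a gene on the other strand (18.0% of the exon length of Dbp with Sphk2, 8.55% of Nr1d1 with Thra, 4.67% of Cry2 with D930015M05Rik and 0.439% of Arntl with Gm45355). Whether the counting used strand is not given in the sources used here, so reads there may come from either gene.

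**Figure D4:**
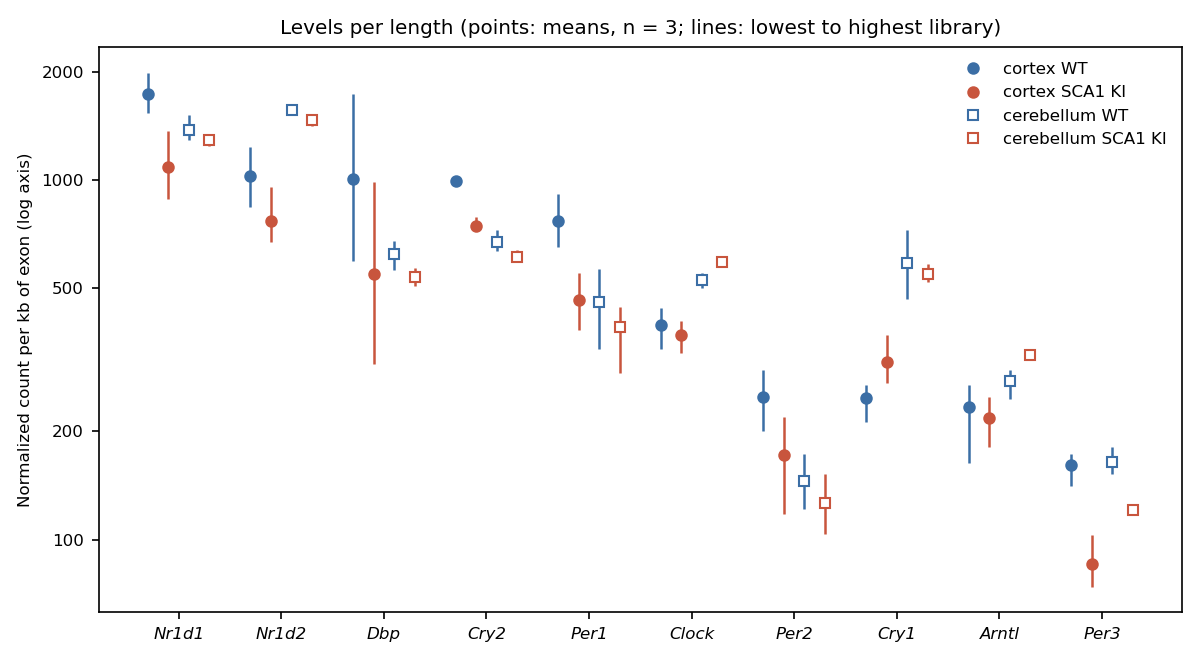
Level of each clock gene (x axis, ordered by WT cortex) as normalized count per kb of exon (y axis, log axis), with group means as points (n = 3; filled for cortex, open for cerebellum) and lines from the lowest to the highest library. Nr1d1 and Nr1d2 are at the top in all 4 groups, and Cry1 is lower in both cortical groups than in both cerebellar groups.

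Between regions, Cry1, Nr1d2 and Clock were lower in cortex than in cerebellum in both genotypes, and Cry2 was higher in both. In WT 3 of 10 clock genes were lower in cortex, where 30.7% of all tested genes were, and 3 of 10 were higher, where 31.0% were. Cry1 differed most, with an LFC of -1.24 ± 0.15 (2.36-fold, adjusted p = 1.07e-05), followed by Nr1d2 at -0.63 ± 0.14 (0.00132) and Clock at -0.43 ± 0.09 (0.00120). Per1, Per2 and Cry2 were higher in WT cortex, with LFCs of 0.77 ± 0.21 (0.00558), 0.77 ± 0.22 (0.00732) and 0.57 ± 0.06 (4.25e-06). Nr1d1 stood at the threshold, at 0.32 ± 0.14 (0.0504; 0.00890 without SCA1 KI A, 0.0337 without WT C, 0.0266 without SCA1 KI F, 0.0421 without cerebellum WT 6, 0.0437 with centring and 0.0335 in DESeq2).

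In SCA1 KI mice 5 of 10 were lower in cortex (30.5% of all tested genes) and 1 of 10 was higher (32.0%). The 5 were Cry1 (-0.82 ± 0.15, adjusted p = 0.000353), Nr1d2 (-0.95 ± 0.14, 4.57e-05), Clock (-0.68 ± 0.09, 2.58e-05), Arntl (-0.59 ± 0.17, 0.00763) and Per3 (-0.51 ± 0.12, 0.00165). The 1 that was higher was Cry2 (0.28 ± 0.06, 0.00150), whose LFC was under the limit without SCA1 KI E (0.24) and with length and GC taken out (0.22), which left no clock gene higher. Per1 (0.26 ± 0.21, 0.287) and Per2 (0.42 ± 0.22, 0.106; 0.00900 without SCA1 KI F) did not pass in SCA1 KI mice. Nr1d1 had an LFC of -0.27 ± 0.14 (0.0918). It passed at -0.45 without SCA1 KI A (0.00255), at -0.45 without D and A (0.000556) and at -0.49 with length and GC taken out (0.00515). Dbp, at -0.19 (0.704), passed at -0.72 without D and A (5.25e-05). Library A was named for its high Dbp and Nr1d1, so leaving it out lowers both in SCA1 KI cortex and is no independent test. Both comparisons share libraries with those between genotypes, and region cannot be told apart from the sequencing run.

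A wider list of 32 other genes of the clock and its outputs was examined, of which 31 were tested (Gm129, an older symbol of Ciart, had no row). In SCA1 KI cortex 9 of the 31 fell and none rose, with a median LFC of -0.15 against -0.0028 over all genes. In SCA1 KI cerebellum 4 of the 31 fell and none rose, with a median of 0.02. The same background shares of 10.8% and 4.44% apply.

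The genes that fell in both regions were Tef and Hlf, which encode the relatives of DBP, Rorb, an activating ROR receptor, and Wee1, a cell cycle kinase gene under clock control. Hlf had 12898, 14170 and 14467 normalized counts in WT cortex and 9076, 7295 and 6377 in SCA1 KI cortex, with an LFC of -0.88 ± 0.10 (adjusted p = 9.66e-05). In cerebellum it had 6995, 6594 and 6748 in WT and 4560, 4923 and 4671 in SCA1 KI, with an LFC of -0.52 ± 0.10 (0.00870). Neither pair of groups overlapped. Tef had LFCs of -0.67 ± 0.09 (0.000238) in cortex and -0.33 ± 0.09 (0.0436) in cerebellum. Those of Rorb were -0.91 ± 0.13 (0.000375) and -0.49 ± 0.13 (0.0410), and those of Wee1 -0.45 ± 0.08 (0.00213) and -0.48 ± 0.08 (0.00354). Hlf and Wee1 passed in both regions whichever library was left out. In cerebellum Tef did not pass without cortex WT B or SCA1 KI E, or without cerebellum WT 2, WT 6 or SCA1 KI 1, 3 or 5 (adjusted p 0.0506 to 0.153), in edgeR (0.0509), with each region centred on its median (0.0618) or with length and GC taken out (0.200). Rorb did not pass there without cortex WT B, C or D, or without those same 5 cerebellar libraries (0.0504 to 0.138; LFC -0.32 without WT 2), nor in the fit of cerebellum alone (0.0753) or with centring (0.0520).

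A further 5 genes passed in cortex and not in cerebellum. Npas2, which encodes a partner of BMAL1 akin to CLOCK, had 2513, 2241 and 1599 normalized counts in WT cortex and 1316, 1563 and 1302 in SCA1 KI cortex (LFC -0.58 ± 0.15, adjusted p = 0.0185). In cerebellum it had 255, 209 and 231 in WT and 318, 309 and 258 in SCA1 KI, all of the latter higher, with an LFC of 0.35 ± 0.15 (0.256). Npas2 did not pass in cortex without WT B, WT C, SCA1 KI A or SCA1 KI F (0.0563 to 0.0753). Rora, an ROR receptor gene known for its part in Purkinje cells, had 6090, 6777 and 6049 in WT cortex and 4097, 4727 and 4283 in SCA1 KI cortex (LFC -0.53 ± 0.07, 0.000254), against an LFC of -0.08 ± 0.07 (0.640) in cerebellum. Cipc, a repressor of CLOCK, had LFCs of -0.27 ± 0.05 (0.00336) and 0.02 ± 0.05 (0.917), and its cortical LFC was -0.24, under the limit, without WT C and with length and GC taken out. For these 3 of the 31 genes the interaction passed, as it did for 8.15% of all tested genes. Bhlhe40, another repressor, and Usp2, a deubiquitinase gene, fell in cortex with LFCs of -0.99 ± 0.19 (0.00286) and -0.68 ± 0.15 (0.00759), with interactions that did not pass (0.132 and 0.112).

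**Figure D5:**
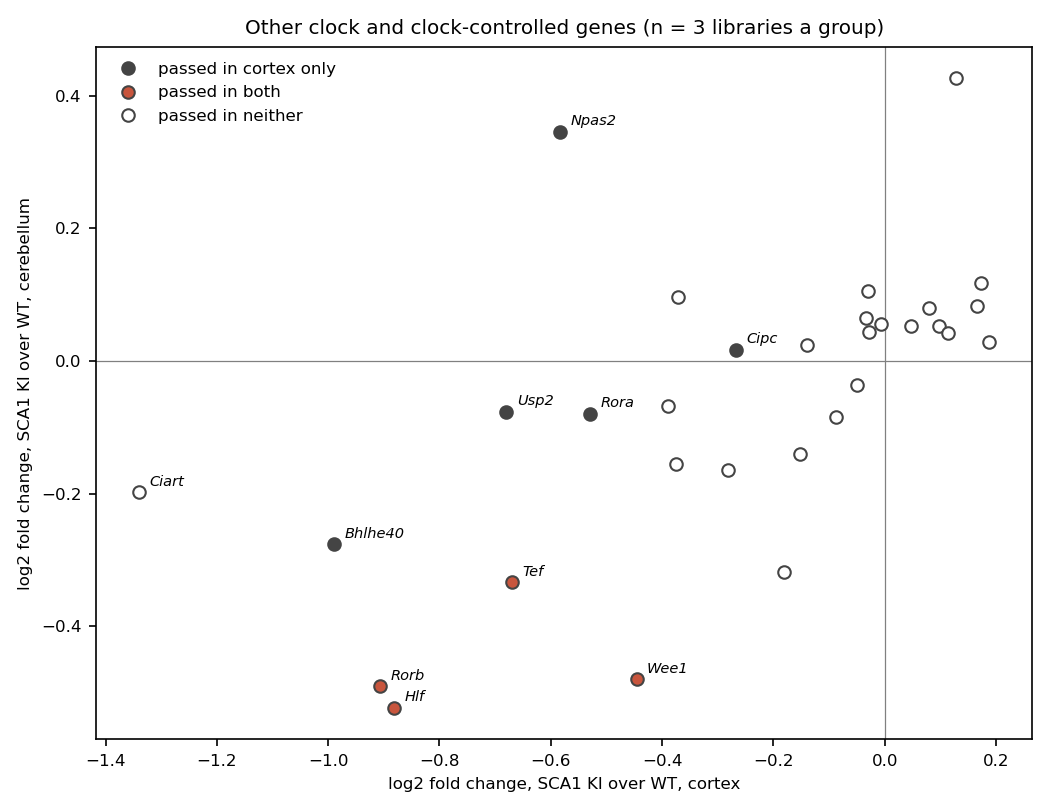
LFC of SCA1 KI over WT in cortex (x axis) and cerebellum (y axis) for the 31 other clock and clock-controlled genes, each point 1 gene (n = 3 libraries a group), filled by where it passed the test. Hlf, Tef, Rorb and Wee1 passed in both regions, and Ciart, farthest to the left, passed in neither.

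Ciart had the lowest cortical LFC of the list, -1.34 ± 0.47, and did not pass (adjusted p = 0.0665). Its normalized counts were 374, 314 and 1080 in WT B, C and D and 443, 140 and 125 in SCA1 KI A, E and F, so D and A stood above the rest of their groups as they did for Dbp. The LFC was -1.92 without A (0.00602) and -0.79 without D (0.213). It passed without both (-1.37, 0.000398) and with length and GC taken out (-1.34, 0.0474). As for Dbp, the fits without D or A are no independent test. The E-boxes of its promoter are printed above.

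Another 4 lists were set beside the clock genes, of which 3 hold genes that respond to activity, stress hormones or temperature and 1 holds genes of the central pacemaker. The background shares are again 10.8% lower and 4.82% higher in cortex, and 4.44% and 0.917% in cerebellum. Of 12 immediate early genes, which neuronal activity switches on, 4 fell in SCA1 KI cortex and none rose: Arc (LFC -1.39), Dusp1 (-0.95), Egr1 (-0.76) and Egr2 (-1.65). Arc had 9641, 14995 and 8367 normalized counts in WT B, C and D and 4176, 4421 and 3654 in SCA1 KI A, E and F. The library highest in Arc, WT C, was also the highest in Per1 and Per2, and likewise in Cry2, Arntl and Clock. Egr1 and Egr2 did not pass without WT C (0.0743 and 0.0703) or SCA1 KI F (0.0680 and 0.0588), and Egr2 did not without D and A together (0.0651). None of the 12 passed in cerebellum, and the median LFC of the list was -0.53 in cortex and -0.04 in cerebellum. Of 12 genes induced by glucocorticoids, Zbtb16 (-0.95) and Klf9 (-0.29; not without WT C or SCA1 KI F, both 0.0622 to 0.0624) fell in cortex and none in cerebellum, with medians of -0.11 and 0.02. Of 10 genes that respond to temperature, Hspa1b (-1.29) and Hspa1a (-0.59) fell and Hsp90aa1 (0.37) and Hspa8 (0.36) rose in cortex, and none passed in cerebellum, with medians of 0.0049 and -0.0015. Hspa1a did not pass without any 1 of cortex WT B, C or D, cortex SCA1 KI A or E, or cerebellum SCA1 KI 1, 3 or 5 (0.0516 to 0.144), without D and A together (0.122), in edgeR (0.0524), in the fit of cortex alone (0.0856) or with length and GC taken out (0.0667). Hspa8 did not pass without D and A (0.24, 0.0731) or in the fit of cortex alone (0.0514). Of 10 genes of the suprachiasmatic nucleus, the pacemaker, 6 were tested: Rgs16 fell in cortex (-0.83) and cerebellum (-0.48; not without WT 4, WT 6 or SCA1 KI 1, 3 or 5, 0.0576 to 0.128, nor with length and GC taken out, 0.0867), and Vip fell in cerebellum, where it had 130, 81.8 and 81.5 normalized counts in WT and between 0 and 2.53 in SCA1 KI. Vip did not pass in cortex, where its mean was 2106 ± 271 (SD, n = 3) in WT and 1066 ± 202 in SCA1 KI. The shared spread of the fit takes in its cerebellar values near 0. The part of these genes in the clock gene values was not tested.

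The genes whose deviations from the group means were most like those of Dbp over the 12 libraries were Ciart (r = 0.983), 2410015M20Rik (0.981), AI413582 (0.979), Rpl6 (0.977) and Ndufaf6 (0.976), and the most opposed were Ifnar1 (-0.989), Elk4 (-0.982), Mbnl1 (-0.981), Abl2 (-0.973) and Zfp738 (-0.973). For Arntl the most like were Hif1an (0.989), Hyou1 (0.984), Rasgrp1 (0.982), Sgsm1 (0.980) and Pds5a (0.977), and the most opposed were Bhlhe41 (-0.986), Smim3 (-0.977), Rps19 (-0.974), Ptpn18 (-0.970) and S100b (-0.970). Among these only Ciart and Bhlhe41 are on the clock lists. With 12 libraries in 4 groups such values are common, since 3.57% of all tested genes exceeded 0.9 in size with Dbp and 1.97% with Arntl.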

How the data were processed

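The authors aligned paired-end reads of 12 libraries with STAR to mm10, used featureCounts to count them per gene and DESeq2 for the normalization (versions are not given in the sources used here). The deposited signal is reads divided by 1 size factor per library, and low values were whole multiples of 1 step, so whole reads were recovered (tolerance 0.05, 100% of values in every library). Columns name region and genotype but not the replicate number of the labels. Of 15759 rows, the 15369 with a mean normalized count of 10 or more entered limma 3.58.1 (R 4.3.3), on log2(normalized count + 1), with 4 group means and a trend on the mean. On this scale a fold change of a low gene is understated. P-values were adjusted by the Benjamini-Hochberg method over all genes tested, and a gene was called at an adjusted p under 0.05 with an absolute log2 fold change over 0.25 (for the interaction, adjusted p alone). edgeR 4.0.16 and DESeq2 1.42.0 on the recovered reads were alternatives, and each tool was tested on simulated data. Exon lengths and positions are from GENCODE vM21 on GRCm38, and promoters from RefSeq. Within groups every 2 libraries differed by more than counting error, with a chi-square of 7.59 to 36.9 for each gene, so all were kept as separate libraries. All 10 clock genes are named, with every called gene of the wider clock list (from which 1 gene was left out and is not reported here) and up to 4 genes of each other list by smallest p. The members, lists and tests were chosen with earlier results of these data known.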

Additional observations from a re-analysis of the deposited data

Results flagged for a closer look

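For 3 of the 31 tested genes of the wider clock list the SCA1 KI difference itself differed between the regions. This was by the interaction test in limma with 3 libraries in each group, which 8.15% of all tested genes passed. The count is near that share and says nothing particular of the list. The LFC in cortex minus that in cerebellum was -0.93 for Npas2 (adjusted p = 0.0180), -0.45 for Rora (0.0137) and -0.28 for Cipc (0.0308). Each of the 3 passed in cortex and not in cerebellum. Without cortex libraries WT D and SCA1 KI A the interaction was -1.08 for Npas2 (0.00582), -0.43 for Rora (0.0254) and -0.27 for Cipc (0.0532), so Cipc no longer passed. Leaving out 1 library at a time, Rora passed each time, Npas2 did not without cortex WT C, cerebellum SCA1 KI 1 or SCA1 KI 3 (0.0502 to 0.0534), and Cipc did not in 8 of the 12 cases (0.0514 to 0.100). No clock gene among the 10 met this criterion, and groups of 3 libraries were not tested for single outlying values.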

How the results depend on the processing

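No paired analysis was possible because the columns carry letters or numbers that are not the replicate numbers of the labels. Of the values of the 10 clock genes under the alternatives other than the limit of 1, 1094 kept direction and side of the threshold, 61 changed side and 15 changed direction, none of which was called in the limma fit of all libraries. With the limit of 1 on the LFC, 323 genes were called in SCA1 KI cortex, 312 in SCA1 KI cerebellum, 3620 between regions in WT and 3622 in SCA1 KI, of which 0, 0, 1 and 0 were clock genes, since fewer genes reach that size. Per3 was lost in cerebellum, leaving 0 clock genes, with centring on the region and with length and GC taken out. The interaction called 2 clock genes in DESeq2 (1754 genes in all), 1 with length and GC taken out (1532) and 4 without WT D and SCA1 KI A (1234). With length and GC taken out as well as D and A it again called 4 (1303 in all). These were Per3, Nr1d1, Dbp and, in place of Arntl, Nr1d2 (adjusted p = 0.0162 in limma). This last setting called 1329 genes and 2 clock genes in cerebellum, 1 lower (Per3) and 1 higher. The higher gene was Arntl, with an LFC of 0.298 (adjusted p = 0.0344 in limma). Leaving out 1 library at a time, the called genes ranged from 399 to 977 in cerebellum (399 without SCA1 KI 1, 454 without 3, 512 without 5) and from 783 to 1267 for the interaction (783 without cerebellum SCA1 KI 1, 833 without 3), and the clock genes called from 0 to 1 and from 0 to 2.

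The values that changed direction had not passed the test in the fit of all libraries. Dbp between regions in SCA1 KI was 0.0211 in edgeR and 0.0232 in DESeq2, and ran from -0.720 to 0.120 with 1 library left out. Cry1 and Nr1d1 in SCA1 KI cerebellum were 0.0251 and 0.0390 with length and GC taken out, with or without WT D and SCA1 KI A. Dbp between regions in WT was -0.227 with length and GC taken out and without WT D and SCA1 KI A. With 1 library left out, Arntl in SCA1 KI cortex ran from -0.311 to 0.0593, Cry1 in SCA1 KI cerebellum from -0.239 to 0.0809, and Per3 between regions in WT from -0.0838 to 0.0601. Removing length and GC moved the share of lower genes among those called in SCA1 KI cortex from 69.2% to 57.1%, and in SCA1 KI cerebellum from 82.9% to 55.2%. The cause of these changes was not tested.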
